A study of Mus musculus with 24 samples.

Results

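Of the 55487 genes listed in both deposited tables, 9 are described here: the RNA and nucleic acid sensors *Ifih1*, *Ddx58*, *Dhx58* and *Zbp1*, the adaptor *Mavs*, and the interferon-linked transcription factors *Irf7*, *Irf9*, *Irf1* and *Stat2*. They were taken by gene symbol, each symbol matched 1 row of each table, and the rule used no measured value, although the genes were picked with earlier results of these data known. All 9 passed the filter on low values, 1 CPM (a read count scaled for the depth of its library) or more in 3 or more libraries, in both experiments. In the second experiment *Zbp1* passed only through sgCbfb and sgCTCF libraries, so a difference was built into its passing there. Of the comparisons with sgControl cells of the same stage, sgCbfb in the second experiment had the most calls, 5 of 9 higher, while with sgCTCF *Ifih1* alone was called.

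The study asked how RUNX factors, which need their partner Cbfβ to bind DNA well, change the genes they act on as lymphoid progenitors (LPs) receive a Notch signal. All libraries came from Cas9-LPs, cell lines made from fetal liver of mice that lack *Ebf1* and carry Cas9 in *Rosa26*, grown with SCF, Flt3L and IL-7 on OP9 stromal cells that had been treated with mitomycin C. A retrovirus brought in the sgRNAs and a human NGFR marker, and hNGFR+CD45+ cells were sorted 5 days later for QuantSeq, which reads the 3′ end of mRNAs. In the first experiment LPs and Phase 1 cells carried sgControl (guides against luciferase) or sgCbfb, in the second LPs carried sgControl, sgCbfb, sgCTCF or sgMed12, and each group has 3 libraries. Phase 1 cells had been moved to OP9 cells that present the Notch ligand DLL4. Control cells thus also lack *Ebf1*, express Cas9 and carry a retrovirus with guides, and the knockout groups are bulk sorted cells, in which cells without an edit are counted too. In such bulk samples a change in the number of cells of one type and a change in the RNA per cell cannot be told apart.

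The helicases encoded by *Ddx58* (RIG-I) and *Ifih1* (MDA5) recognise viral or other unusual double-stranded RNA in the cytoplasm and signal through the mitochondrial adaptor MAVS, with *Dhx58* (LGP2) acting on both. ZBP1 senses left-handed Z-form nucleic acid. Signals through MAVS activate factors that switch on type I interferon genes, among them IRF7, and secreted interferon then acts through its receptor and JAK kinases to form ISGF3, a complex that holds STAT2 and IRF9 and binds the interferon-stimulated response element (ISRE). Most sensors and *Irf7*, *Irf9* and *Stat2* are themselves interferon-stimulated genes, whereas *Irf1* is known mainly as a target of interferon γ through sites called GAS.

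The genes lie on 6 chromosomes of GRCm38 in GENCODE M21, with *Ifih1* at chr2:62595798-62646255, *Zbp1* at chr2:173206612-173218923 and *Mavs* at chr2:131234063-131248025, *Ddx58* at chr4:40203773-40239828 and *Irf7* at chr7:141262706-141266481. *Dhx58* is at chr11:100694884-100704271, *Irf1* at chr11:53770014-53778374, *Stat2* at chr10:128270559-128292849 and *Irf9* at chr14:55603571-55610030. RefSeq promoters (GRCm38.p6), windows of 300 bases that end just after a start site, were at hand for 7 of the 9 members, and not for *Dhx58* and *Zbp1*. Both strands were searched for an ISRE core (GAAA, any 2 bases, GAAA), a GAS site (TTCNNNGAA) and a RUNX site (TGTGGT). The 7 genes had 9 such windows in all. The ISRE core was found for 3 of the 7 genes, *Ifih1*, *Ddx58* and *Stat2*, and for 3.99% of all 27025 genes (3.44% of their 32851 promoters). The GAS letters were found for *Irf1* and for 9.55% of genes (8.3% of promoters), and the RUNX letters for *Stat2* and for 18.9% of genes (16.8% of promoters). The matching windows are printed to show where the letters lie. Genes with and without an ISRE core in the window passed the test with sgCbfb in the second experiment, *Ifih1*, *Ddx58* and *Stat2* with one and *Irf7* and *Irf9* without, while *Irf1* and *Mavs*, also without, did not pass. Capitals mark the ISRE core, or in *Irf1* the GAS letters, read 5′ to 3′ on the strand of the gene. The first base of the match is 33 and 3 bases into the transcript for *Ifih1* and *Ddx58*, and lies at -222 for *Stat2* and -90 for *Irf1* from the start site.
*Ifih1*, chr2:62646206-62646505, minus strand: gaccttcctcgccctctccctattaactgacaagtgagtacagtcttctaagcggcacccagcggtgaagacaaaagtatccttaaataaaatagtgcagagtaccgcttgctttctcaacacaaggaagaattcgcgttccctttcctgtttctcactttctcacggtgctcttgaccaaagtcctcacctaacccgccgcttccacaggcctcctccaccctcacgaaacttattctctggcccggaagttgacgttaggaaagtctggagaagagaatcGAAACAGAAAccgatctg
*Ddx58*, chr4:40239776-40240075, minus strand: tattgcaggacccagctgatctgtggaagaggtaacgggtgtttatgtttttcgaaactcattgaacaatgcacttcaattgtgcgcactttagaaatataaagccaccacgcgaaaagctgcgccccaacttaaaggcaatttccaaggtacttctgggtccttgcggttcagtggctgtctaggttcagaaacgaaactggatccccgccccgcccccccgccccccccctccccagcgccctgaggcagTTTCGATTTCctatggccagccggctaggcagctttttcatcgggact
*Stat2*, chr10:128270248-128270547, plus strand: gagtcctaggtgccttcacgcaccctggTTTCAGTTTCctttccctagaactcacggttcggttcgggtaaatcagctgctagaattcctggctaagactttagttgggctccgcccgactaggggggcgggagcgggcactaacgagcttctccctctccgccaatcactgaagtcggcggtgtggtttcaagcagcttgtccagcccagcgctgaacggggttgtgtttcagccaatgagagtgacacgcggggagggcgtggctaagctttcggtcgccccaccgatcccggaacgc
*Irf1*, chr11:53769764-53770063, plus strand: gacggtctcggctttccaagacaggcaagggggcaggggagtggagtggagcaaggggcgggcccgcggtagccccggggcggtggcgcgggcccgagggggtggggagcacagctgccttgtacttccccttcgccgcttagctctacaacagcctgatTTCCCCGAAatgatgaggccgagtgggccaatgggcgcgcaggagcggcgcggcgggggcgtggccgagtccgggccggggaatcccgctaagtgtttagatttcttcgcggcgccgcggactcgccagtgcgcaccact
A match is a run of letters and was not tested for binding. The printed ISRE cores read GAAACAGAAA in *Ifih1*, TTTCGATTTC in *Ddx58* and TTTCAGTTTC in *Stat2*, the last 2 on the strand opposite to the gene.

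Reads on genes numbered 1363263 to 1743319 per library in the first experiment and, in the second, 3354483 to 4326782, so that 3 reads, the limit a count of 0 allows, were worth 1.72 to 2.20 CPM and 0.693 to 0.894 CPM. *Cbfb* was lower with sgCbfb in all LP libraries, 35.7 to 45.8 CPM against 75.8 to 92.7 CPM in the first experiment and 41.6 to 55.4 CPM against 109 to 124 CPM in the second, but in Phase 1 cells it overlapped (44.1 to 63.5 CPM against 44.7 to 81.3 CPM). *Ctcf* was at 272 to 330 CPM with sgCTCF against 356 to 413 CPM in sgControl, and *Med12* was not lower with sgMed12 (3.20 to 9.61 CPM against 4.38 to 6.59 CPM). Reads from the 3′ end do not cover a guide's cut, so these values do not measure editing. LP markers (*Ptprc*, *Il7r*, *Flt3*, *Rag1*, *Dntt*, *Cd44*, *Spi1*) summed to 846 to 1907 CPM in every library, and stromal markers to at most 56.5 CPM. *Ebf1* transcripts were counted at 161 to 334 CPM on average per group, and 3′ reads alone do not show which part of the gene is missing. Library 3 of the Phase 1 sgControl group was the lowest of its group for 6 of 9 members and stood far apart in *Irf1* (35.2 CPM against 181 and 146 CPM). It also had the least *Cbfb* of its group, so results whose side of the threshold changed without it are given both ways.

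**Figure D1:**
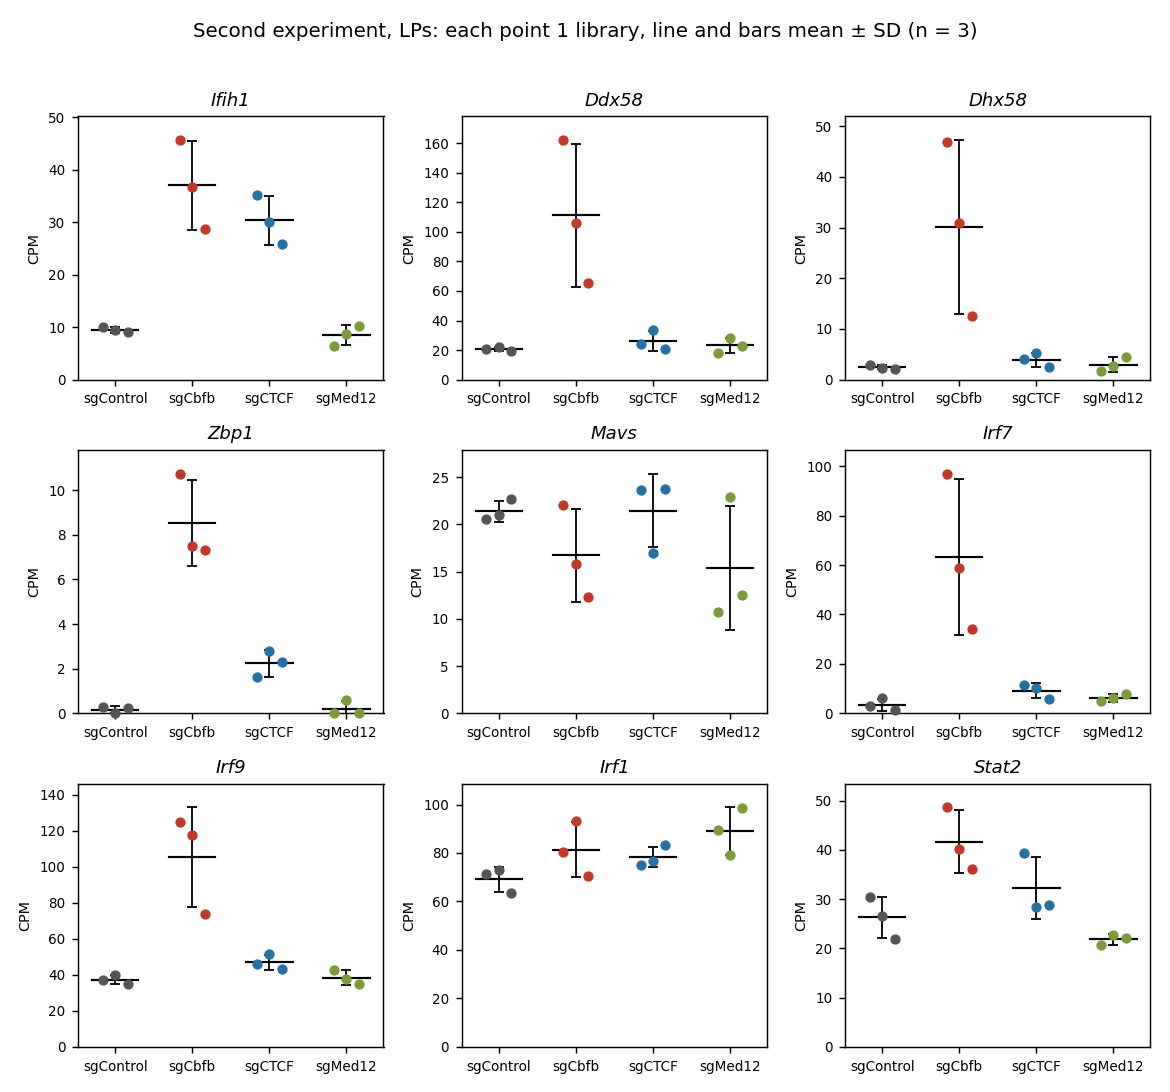
CPM of each member (y axes, from 0) in the LP libraries of the second experiment, by sgRNA (x axis). Points are libraries, and lines and bars show the mean ± SD (n = 3). In *Ddx58*, *Dhx58*, *Zbp1*, *Irf7* and *Irf9* every sgCbfb library lies above all libraries of the other sgRNAs. For *Zbp1*, which passed the filter only through sgCbfb and sgCTCF libraries, a difference was built in. *Ifih1* is high with sgCbfb (28.7 to 45.6 CPM) and sgCTCF (25.9 to 35.2 CPM), and *Mavs* overlaps its controls in every group.

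The sgCbfb comparison of the second experiment asks which genes change in unstimulated LPs when RUNX factors lose their partner. Here 5 of 9 members were called higher, *Ifih1*, *Ddx58*, *Dhx58*, *Irf7* and *Irf9*, and none lower, against 2.67% of the 13177 genes tested called higher. A call needs an adjusted P under 0.05 (limma, Benjamini-Hochberg over all genes tested), a log2 ratio of means over 1 and, in at least 1 of the groups, a mean above 10 CPM. On the adjusted P alone 7 of 9 were higher, with *Zbp1* and *Stat2* added, against 6.91% of genes. The same 7 had every sgCbfb library above every sgControl library, against 15.5% of genes. *Zbp1* is counted in both although a difference was built in, since it passed the filter only through sgCbfb and sgCTCF libraries. The median log2 fold change of the members was 1.83, beside -0.01 over all genes tested. edgeR on the recovered reads likewise called 5 and put 7 under an adjusted P of 0.05.

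Among the sensors, *Ifih1* had 10.0, 9.45 and 9.01 CPM in the sgControl libraries 1, 2 and 3, and 45.6, 36.7 and 28.7 CPM in the sgCbfb libraries. The lowest sgCbfb library was still well above the highest control. Its mean rose 3.90-fold, from 9.49 ± 0.51 CPM to 37.0 ± 8.4 CPM (SD, n = 3), with a log2 fold change on CPM + 1 of 1.83 ± 0.22 (SE, limma, adjusted P = 6.9e-07). *Ddx58* had 20.6, 21.9 and 19.7 CPM in sgControl and 162, 106 and 65.5 CPM with sgCbfb. The controls lay close together while the sgCbfb libraries spread widely, without overlap. Its mean rose 5.37-fold, with a log2 fold change of 2.28 ± 0.23 (SE, limma, adjusted P = 7.1e-08). *Dhx58*, which encodes the helicase that lacks the signalling domains of the other two, had 2.90, 2.36 and 2.19 CPM in sgControl and 46.8, 30.8 and 12.6 CPM with sgCbfb. Its ratio of means was 12.1, with a log2 fold change of 2.98 ± 0.38 (SE, limma, adjusted P = 2.2e-06). *Zbp1* had at most 1 read in a sgControl library (0.263, 0 and 0.243 CPM) and 10.7, 7.51 and 7.31 CPM with sgCbfb, where 28 to 36 reads were counted. Against the floor of 3 reads per library this is at least 10.6-fold higher (limma, adjusted P = 5.0e-07), and it was not called because its mean of 8.51 CPM was under 10 CPM. The adaptor *Mavs*, through which both signalling helicases act, did not rise with them. It had 20.6, 21.0 and 22.6 CPM in sgControl and 22.1, 15.8 and 12.3 CPM with sgCbfb, groups that overlapped, and its log2 fold change was -0.37 with a 95% confidence interval of -0.88 to 0.14 (limma, adjusted P = 0.40).

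Among the transcription factors, *Irf7*, known as the amplifier of type I interferon genes, had the largest log2 fold change on CPM + 1 of the 9. By edgeR *Zbp1*, at the floor in sgControl, had a larger one (5.34 against 4.24 for *Irf7*). *Irf7* is described next. It was at 2.90, 6.20 and 1.22 CPM in the sgControl libraries and at 96.9, 59.0 and 34.0 CPM with sgCbfb. The ratio of means was 18.4 and the log2 fold change 3.90 ± 0.37 (SE, limma, adjusted P = 1.7e-08). *Irf9*, the DNA-binding subunit of ISGF3, was already at 36.9, 40.2 and 35.1 CPM in sgControl and reached 125, 117 and 73.8 CPM. It rose 2.82-fold, with a log2 fold change of 1.44 ± 0.16 (SE, limma, adjusted P = 3.7e-07). *Stat2*, its partner in ISGF3, rose less, from 30.3, 26.6 and 21.9 CPM to 48.6, 40.2 and 36.0 CPM. The groups did not overlap, but the ratio of means was 1.58 and the log2 fold change 0.64 ± 0.18 (SE, limma, adjusted P = 0.015), which moved to 0.10 without sgCbfb library 1 or without sgControl library 3. *Irf1* had 71.2, 72.9 and 63.3 CPM in sgControl and 80.5, 93.0 and 70.5 CPM with sgCbfb. These groups overlapped, and its log2 fold change was 0.22 with a 95% confidence interval of -0.04 to 0.49 (limma, adjusted P = 0.30).

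The 3 sgCbfb libraries of the second experiment differed from one another in the same sense for nearly every member. Library 3 was the lowest for 9 of 9 and library 1 the highest for 8 of 9, *Irf1* being the exception. *Cbfb* itself was at 48.3, 41.6 and 55.4 CPM in libraries 1, 2 and 3. An order among libraries was not particular to sgCbfb. Library 3 was also the lowest for 7 of 9 members in sgControl and 5 of 9 in sgCTCF, and with sgMed12 library 1 was the lowest for 7 of 9. The 5 called members kept their call when any one of the 12 libraries was left out, with adjusted P of at most 6.96e-05 (limma). Exons of *Irf7* share 45 bases with the opposite-strand gene *Phrf1*, and *Phrf1* was at 206 CPM in sgControl and 199.6 CPM with sgCbfb. Whether the authors' counting used strand is not given in the sources used here, and *Irf9* also shares 123 bases with *Rnf31* (2.77 CPM in sgControl and 6.33 CPM with sgCbfb).

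Markers of other cells moved with sgCbfb as well. The summed level of 10 macrophage and myeloid genes was 96.7 to 123 CPM in sgControl and 740 to 872 CPM in sgCbfb libraries of the second experiment, where 4 of the 9 tested were called higher, 0 lower, and 1 had at most 3 reads in every sgCbfb library. The sum rests on a part of the list. With sgCbfb *Lyz2* averaged 3.85 CPM, and *Csf1r*, at 1.58 CPM, did not pass the test (limma, adjusted P = 0.098). In LPs of the first experiment the same list went from 114 to 140 CPM up to 548 to 641 CPM, and there no member passed the test. Plasmacytoid dendritic cells, the cells best known for high *Irf7*, were represented by 8 marker genes whose sum in the second experiment was lower with sgCbfb, 356 to 469 CPM against 727 to 954 CPM. The genes of this list did not move together. Of the 6 tested, 1 was called lower and 0 higher, and at an adjusted P under 0.05 (limma) 3 were lower and 2 higher. The part of such cells in the rise of the members was not tested.

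The pathway around the members was followed in lists of further genes. Effectors, the interferon-stimulated genes that act against viruses, were called higher for 27 of 34 tested of 35 listed. Their median log2 fold change was 2.46, also with the 7 genes at the floor in a group set at their bound. Some effectors, also among those called, passed the filter only through sgCbfb libraries. For them a difference was built in, and setting them at a bound does not remove it. *Rsad2* (viperin) rose from 0.877 ± 0.345 CPM to 45.8 ± 10.3 CPM (SD, n = 3), *Trim30a* from 3.05 ± 0.75 CPM to 110.3 ± 77.5 CPM, and *Rtp4* from 3.63 ± 1.67 CPM to 124 ± 52 CPM. Other sensing genes were called higher for 3 of 19 tested, the double-stranded RNA kinase *Eif2ak2* (28.5 ± 1.8 CPM to 78.6 ± 19.9 CPM), the RNA-editing enzyme *Adar* (27.0 ± 2.0 CPM to 70.0 ± 18.8 CPM) and the DNA sensor *Aim2* (5.38 ± 3.91 CPM to 11.9 ± 1.0 CPM). Of 16 receptor and JAK-STAT genes 2 were called higher and 1 lower. Here too a gene called higher passed the filter only because of its sgCbfb libraries. *Socs3*, an inhibitor of cytokine signals, fell from 17.3 ± 7.3 CPM to 7.15 ± 1.88 CPM. None of 12 interferon genes could be tested in either experiment. Of these ligands 10 had no read in any library of the second experiment, and no library had more than 3 reads over the 12 together.

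**Figure D2:**
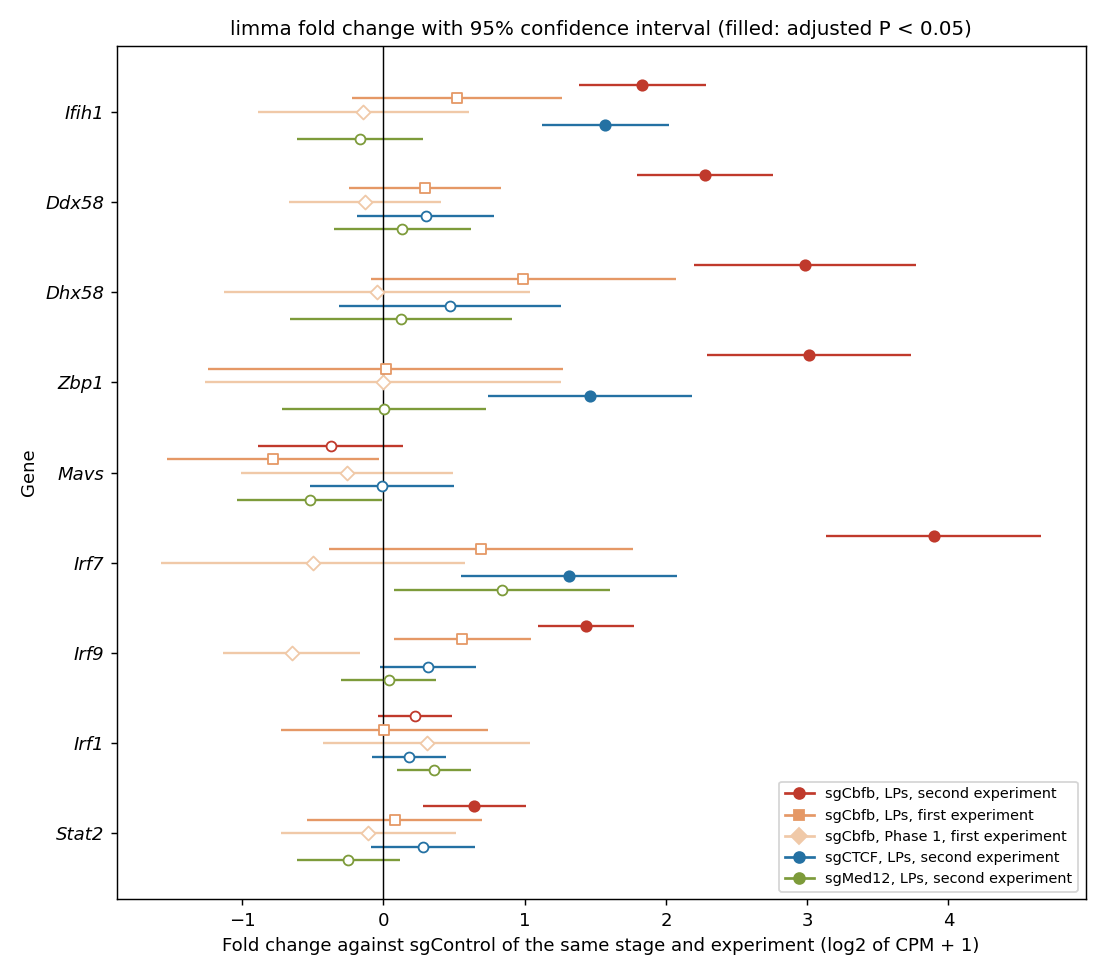
limma fold change of each member against the sgControl group of the same stage and experiment (x axis, log2 of CPM + 1), with the 95% confidence interval, for sgCbfb in 3 settings and for sgCTCF and sgMed12. Filled symbols have an adjusted P under 0.05. The red points of sgCbfb in the second experiment run from -0.37 (*Mavs*) to 3.90 (*Irf7*), and among the blue sgCTCF points *Ifih1* (1.57) stands highest.

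CTCF was targeted because it binds with RUNX1 in LPs. With sgCTCF 1 of 9 members was called higher, *Ifih1*, against 1.81% of genes called higher, and 3 of 9 were higher at an adjusted P under 0.05, against 6.13% of genes. The groups did not overlap for 4 of 9 (*Ifih1*, *Zbp1*, *Irf9* and *Irf1*), against 16% of genes. For *Zbp1*, counted in the last 2 of these, a difference was again built in by its passing the filter. *Ifih1* was at 35.2, 30.1 and 25.9 CPM in the sgCTCF libraries, all above the sgControl range of 9.01 to 10.0 CPM. Its log2 fold change was 1.57 ± 0.22 (SE, limma, adjusted P = 2.2e-05), a rise of 3.20-fold. *Zbp1* was detected in every sgCTCF library, at 1.61, 2.78 and 2.31 CPM from 6 to 10 reads. This is at least 2.78-fold over the floor of the sgControl group (limma, adjusted P = 0.0071), at a mean under 10 CPM. *Irf7* had 11.5, 10.3 and 5.78 CPM, which overlapped the highest sgControl library, with a log2 fold change of 1.32 ± 0.37 (SE, limma, adjusted P = 0.021). That P rose to between 0.064 and 0.17 without any one of 4 libraries, sgControl 1 or 3 or sgCTCF 1 or 2. The other helicases did not pass the test. *Ddx58* was at 20.8 to 33.7 CPM (log2 fold change 0.30, 95% confidence interval -0.18 to 0.78) and *Dhx58* at 2.54 to 5.29 CPM (0.47, -0.31 to 1.26). *Irf9*, *Stat2*, *Irf1* and *Mavs* had log2 fold changes of 0.32, 0.28, 0.18 and -0.01, with limma adjusted P of 0.26 to 0.99.

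The contrast between the sgRNAs was tested directly in the same fit. Between sgCTCF and sgCbfb 4 of 9 members were called lower with sgCTCF, *Ddx58*, *Dhx58*, *Irf7* and *Irf9*, against 3.38% of genes called lower. At an adjusted P under 0.05 *Zbp1* was added, making 5 of 9 against 10.9% of genes. *Ddx58* was lower by 1.98 on the log2 scale, with the log2 fold change at -1.98 ± 0.23 (SE, limma, adjusted P = 4.5e-07), *Irf7* at -2.58 ± 0.37 (adjusted P = 7.6e-06) and *Dhx58* at -2.51 ± 0.38 (adjusted P = 1.7e-05). For *Ifih1* no difference between sgCTCF and sgCbfb passed the test. Its log2 fold change was -0.26 with a 95% confidence interval of -0.71 to 0.19 (limma, adjusted P = 0.44), an interval that leaves room for a level up to 0.71 log2 units lower with sgCTCF. Of *Ifih1* and *Ddx58*, which encode the paired RNA helicases, both were called with sgCbfb and *Ifih1* alone with sgCTCF, and the difference between the 2 genes was not tested.

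Few other pathway genes were called with sgCTCF. Effectors were called higher for 2 of 34, *Sp100* (23.7 ± 4.1 CPM to 58.3 ± 12.5 CPM) and *Samd9l* (18.9 ± 6.4 CPM to 45.5 ± 11.8 CPM), and the median over the list was 0.20, or 0.17 with the gene at the floor set at its bound. Of 16 receptor and JAK-STAT genes 2 were called higher, among them *Ifngr2*, a chain of the interferon γ receptor, which rose from 14.1 ± 3.1 CPM to 29.7 ± 3.3 CPM. No other sensing gene of the 19 tested was called. The macrophage and myeloid list, at 99.8 to 116 CPM, stayed within the sgControl range of 96.7 to 123 CPM.

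Med12 belongs to the kinase module of Mediator, the complex that links transcription factors to RNA polymerase. With sgMed12 no member was called, and 0 of 9 had an adjusted P under 0.05 by limma or by edgeR, with 3 at an unadjusted P under 0.05 by limma and 1 by edgeR. Genes called were 0.668% higher and 0.364% lower. *Ifih1* was at 6.50, 8.72 and 10.2 CPM, around its controls, and its log2 fold change was -0.17 with a 95% confidence interval of -0.61 to 0.28. *Irf1* was the one member without overlap, against 9.33% of genes, at 89.6, 79.0 and 98.5 CPM over a highest control of 72.9 CPM (log2 fold change 0.36 ± 0.13, SE, limma, adjusted P = 0.085). *Mavs* spread over 10.7 to 23.0 CPM, with 1 library just above the control range and 2 under it (log2 fold change -0.52 ± 0.25, SE, limma, adjusted P = 0.20). Without sgMed12 library 2 both passed the adjusted P, *Irf1* at 0.44 (limma, adjusted P = 0.013) and *Mavs* at -0.83 (limma, adjusted P = 0.011). Against sgCbfb, 5 of 9 were called lower with sgMed12, against 2.72% of genes, namely *Ifih1*, *Ddx58*, *Dhx58*, *Irf7* and *Irf9*. Against sgCTCF 1 of 9 was called lower, *Ifih1*, against 2.31% of genes, at a log2 fold change of -1.74 ± 0.22 (SE, limma, adjusted P = 4.1e-06). Of the effectors *Bst2* (100.5 ± 8.3 CPM to 287 ± 148 CPM) and *Rtp4* (3.63 ± 1.67 CPM to 10.1 ± 5.1 CPM) were called higher with sgMed12.

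**Figure D3:**
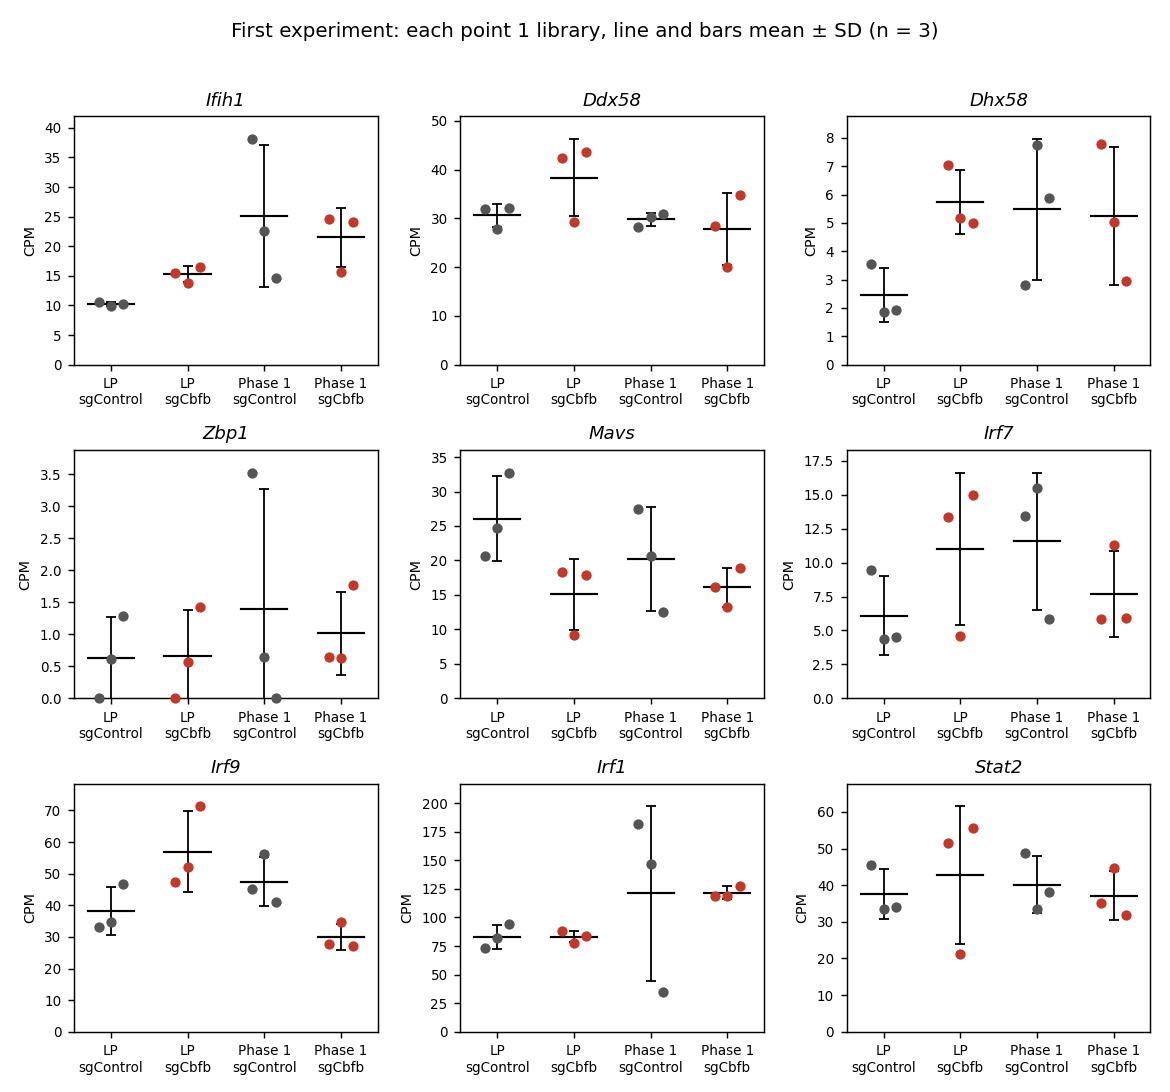
CPM of each member (y axes, from 0) in LP and Phase 1 libraries of the first experiment, by stage and sgRNA (x axis). Points are libraries, and lines and bars show the mean ± SD (n = 3). The groups overlap for most members, *Irf9* is lowest on average in Phase 1 cells with sgCbfb (27.1 to 34.6 CPM), and 1 Phase 1 sgControl library lies far under the other two for *Irf1* (35.2 CPM).

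The first experiment repeats sgCbfb in LPs at a lower depth. None of the 9 members was called or had an adjusted P under 0.05 there, by limma or edgeR, and 2 had an unadjusted P under 0.05 by each. Over all 13239 genes 1.1% were called higher and 0.597% lower. The point estimates were above 0 for 8 of 9, and 3 members had no overlap upward, against 9.11% of genes. *Ifih1* was at 10.6, 9.91 and 10.3 CPM in sgControl and 15.5, 13.8 and 16.4 CPM with sgCbfb. That is a log2 fold change of 0.52 with a 95% confidence interval of -0.22 to 1.27 (limma, adjusted P = 0.67), set beside 1.83 with an interval of 1.38 to 2.28 in the second experiment. *Dhx58* went from 3.54, 1.86 and 1.93 CPM to 7.05, 5.16 and 5.00 CPM, on 3 to 10 reads a library, with a log2 fold change of 0.99 and an interval of -0.09 to 2.07. *Irf9* was at 33.1, 34.7 and 46.9 CPM and then at 47.3, 52.2 and 71.4 CPM, just without overlap, at 0.56 with an interval of 0.07 to 1.04 (limma, adjusted P = 0.30). *Ddx58* gave 0.30 (-0.24 to 0.84), *Irf7* 0.69 (-0.39 to 1.77) and *Stat2* 0.08 (-0.54 to 0.70). For each of the 5 members called in the second experiment the interval of the first lies wholly under that of the second, which was 1.79 to 2.76 for *Ddx58* and 3.13 to 4.66 for *Irf7*. The tables were scaled separately, and the difference between the experiments was not tested.

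*Mavs* was the member with the lowest estimate in LPs of the first experiment, at 20.7, 24.8 and 32.8 CPM in sgControl and 18.3, 9.18 and 17.8 CPM with sgCbfb. The groups did not overlap downward, against 8.35% of genes, and the log2 fold change was -0.78 ± 0.36 (SE, limma, adjusted P = 0.39). *Irf1* was level, at 73.2 to 94.4 CPM and 78.0 to 88.2 CPM. *Zbp1* had 0 to 2 reads in every LP library, within the floor, so no fold is given. Of the effectors 4 of 32 tested were called higher in this comparison, led by *Rsad2* (1.65 ± 0.72 CPM to 18.3 ± 8.2 CPM), *Trim30a* (3.85 ± 1.99 CPM to 20.5 ± 1.4 CPM) and *Rtp4* (9.53 ± 5.48 CPM to 29.2 ± 10.1 CPM). *Irf8*, a factor of the myeloid and dendritic lineages in the list of sensing genes, fell from 80.5 ± 14.1 CPM to 25.7 ± 6.5 CPM.

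Phase 1 cells were compared to ask what sgCbfb does after a Notch signal. Their Notch response genes summed to 808 to 951 CPM in sgControl, against 37.8 to 54.9 CPM in LPs. With sgCbfb 0 of 9 members were called or had an adjusted P under 0.05, by limma or edgeR, and 1 had an unadjusted P under 0.05 by each, against 1.96% of genes called higher and 1.56% lower. *Irf9* was the member with that P and the one without overlap, downward, against 9.28% of genes. It had 45.2, 56.1 and 41.1 CPM in sgControl and 27.9, 34.6 and 27.1 CPM with sgCbfb, a log2 fold change of -0.65 ± 0.23 (SE, limma, adjusted P = 0.12). The sgCbfb estimate for *Irf9* was thus above 0 in LPs and under 0 in Phase 1 cells. The difference of the 2 effects was -1.21 ± 0.33 on the log2 scale (SE, limma interaction, adjusted P = 0.087), and it passed at -1.30 with adjusted P = 0.023 without Phase 1 sgControl library 3. No member passed the interaction with all libraries, by limma or edgeR, with 1 at an unadjusted P under 0.05 by each, against 0.589% of genes called higher and 0.597% lower. Macrophage and myeloid genes summed to 457 to 495 CPM with sgCbfb in Phase 1 cells against 89.0 to 107 CPM in sgControl.

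Between stages, Phase 1 sgControl cells had more *Ifih1* than LP sgControl cells in every library, 38.1, 22.6 and 14.7 CPM against 9.91 to 10.6 CPM, as 9.77% of genes did. The mean rose from 10.3 ± 0.4 CPM to 25.1 ± 11.9 CPM (SD, n = 3), but the adjusted P of 0.070 (limma, log2 fold change 1.11 ± 0.36, SE) missed the threshold. It became 0.022 with edgeR and 0.013 without Phase 1 sgControl library 3. No member was called by limma in this comparison, against 1.65% of genes called higher and 1.74% lower, 1 had an unadjusted P under 0.05, and edgeR called *Ifih1*. *Irf1* rested on one library as well, since its log2 fold change of 0.24 (limma, adjusted P = 0.76) became 0.97 with adjusted P = 2.8e-05 without library 3. Effectors were called higher for 6 of 32, among them *Trim30a* (3.85 ± 1.99 CPM to 34.2 ± 4.5 CPM) and *Igtp* (5.50 ± 1.62 CPM to 24.9 ± 5.4 CPM), with a median of 1.04, or 0.64 with 3 genes at the floor set at their bound. In sgCbfb cells 1 of 9 members differed between stages at an adjusted P under 0.05, *Irf9*, lower in Phase 1 cells (log2 fold change -0.90 ± 0.23, SE, limma, adjusted P = 0.045), against 0.959% of genes. The log2 ratio of its means was not past 1, so it was not called, and the adjusted P rose above 0.05 without any one of the 6 sgCbfb libraries or LP sgControl library 2, reaching 0.22. No member was called, against 0.74% of genes called higher and 0.453% lower. *Irf1* was the one member with every Phase 1 sgCbfb library above every LP sgCbfb library, 119 to 128 CPM against 78.0 to 88.2 CPM, against 9.19% of genes. Its log2 fold change was 0.54 ± 0.35 (SE, limma, adjusted P = 0.60), and the adjusted P became 0.021 without Phase 1 sgControl library 3 and 0.018 with only the groups compared in the fit.

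Taking the 8 groups in order, *Ifih1* was at 8.48 and 9.49 CPM on average in sgMed12 and sgControl LPs of the second experiment and 10.3 CPM in sgControl LPs of the first, with overlap among the 3 groups. The tables were scaled separately, so an order across experiments is a description. It was at 15.2 CPM in sgCbfb LPs of the first experiment and at 21.5 and 25.1 CPM in Phase 1 cells with sgCbfb and sgControl, which overlapped. The highest means, 30.4 CPM with sgCTCF and 37.0 CPM with sgCbfb in the second experiment, overlapped too. *Irf7* ran from 3.44 CPM in sgControl LPs of the second experiment to 11.6 CPM in Phase 1 sgControl cells, neighbours that overlapped throughout, and then to 63.3 CPM in the sgCbfb LPs. *Irf9* had the least in Phase 1 cells with sgCbfb (29.8 ± 4.1 CPM, SD, n = 3) and the most in sgCbfb LPs of the second experiment (105 ± 28 CPM). *Irf1* had its 2 highest means in Phase 1 cells, 122 ± 5 CPM with sgCbfb and 121 ± 76 CPM in sgControl. *Mavs* stayed between group means of 15.1 and 26.1 CPM.

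**Figure D4:**
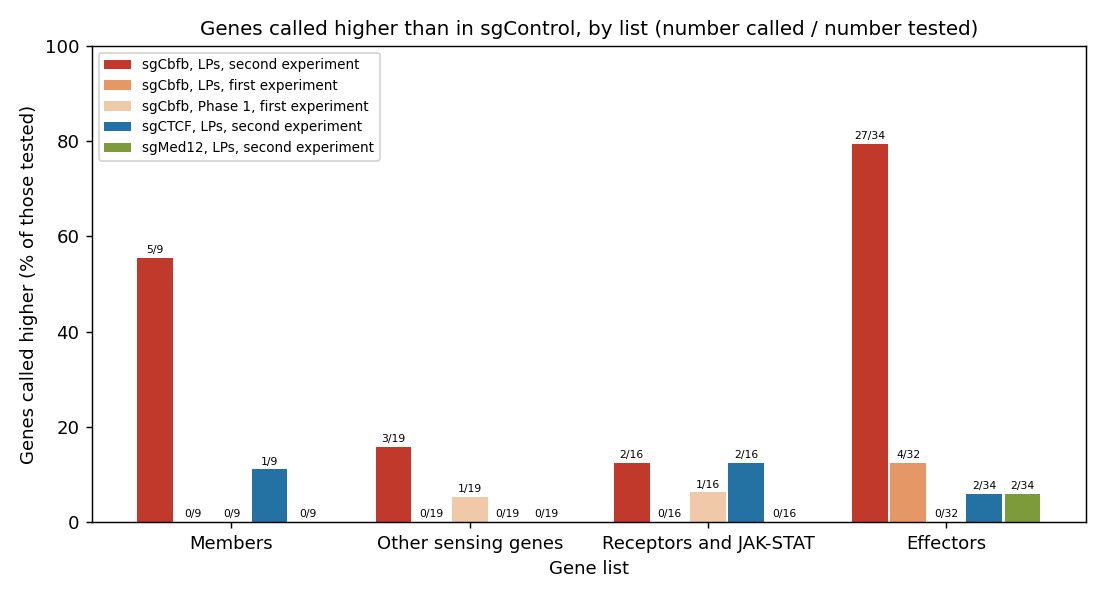
Share of tested genes called higher than in sgControl (y axis, percent) for the members and 3 lists of pathway genes (x axis), for 5 comparisons, with the number called over the number tested above each bar. With sgCbfb in the second experiment 5 of 9 members and 27 of 34 effectors were called, and none of the other comparisons shown called more than 1 member. Some of these effectors passed the filter only through sgCbfb libraries.

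As a description over the 24 libraries, each centred on its experiment's mean on log2(CPM + 1), *Irf7* followed the mean of the other members most closely (Pearson's r = 0.90), then *Ddx58* (0.86), *Zbp1* (0.84), *Irf9* (0.80), *Dhx58* (0.80), *Ifih1* (0.79) and *Stat2* (0.70). *Irf1* (0.20) and *Mavs* (0.02) had the lowest values. Libraries of a group share their treatment, so the 24 points are not independent. Among 8615 other genes that averaged above 10 CPM in some group of both experiments, those most like the mean of the members included *Parp9* (r = 0.89), *Parp14*, *Slfn5*, *Irgm2*, *Ly6a*, *Rtp4*, *Rnf213*, *Trim12c* and *Samd9l* (0.86). *Slfn5* was at 7.27 CPM in sgControl, 52.7 CPM with sgCbfb, 30.6 CPM with sgCTCF and 8.68 CPM with sgMed12, so its sgCbfb and sgCTCF means lay above the other two, as for *Ifih1*. *Rnf213*, at 27.3, 174, 30.6 and 26.9 CPM in the same groups, had its sgCbfb mean far above the other three, as did *Ddx58*.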

How the data were processed

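QuantSeq 3′ mRNA values of 24 libraries, 3 in each of 8 groups, were used, with groups and replicate numbers taken from the labels. Per the submitters' processing notes, fastp, STAR and the mm10 build were used, and the authors deposited 1 value per gene and library. The deposited values are named TPM but are CPM: each is a whole multiple of the value of 1 read, whatever the gene's length, and whole reads were recovered for 100% of values (within 0.05 of a whole read). A line without an identifier, which holds the value of 1 read, and 1 pooled column of means were not used. The counting tool is not given in the sources used here.

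Genes at 1 CPM or more in 3 or more libraries entered the test, made on log2(CPM + 1) in R 4.3.3 with limma 3.58.1 (variances moderated along a trend, all 4 groups of an experiment in one fit, Benjamini-Hochberg adjustment over all genes tested), so fold changes of low genes are understated. Calls used the study's thresholds (adjusted P under 0.05, absolute log2 ratio of means over 1, mean over 10 CPM). For the interaction the adjusted P and the mean in any group were used. Comparisons were made within an experiment, since each table was scaled on its own. The study describes the triplicates as biological replicates, while the labels do not say that cultures were separate, so P values measure the spread between these libraries. An exact test of 3 libraries against 3 cannot give a two-sided P under 0.1. Confidence intervals are those of limma and rest on the spread between libraries, while floors from reads cover counting error only. The 9 members and all gene lists were chosen with earlier results of these data known. Beside the members, the text names the targeted genes, for each pathway list and comparison up to 3 called genes with the largest ratio of means that were above 0 in every library, and the 10 genes most like the members, of which some are not reported here. *Cgas* and *Sting1*, listed under older symbols, were matched under those the files use.

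Alternatives were pseudocounts of 0.1 and 5, no filter, a filter on means of 10 CPM, scaling by medians of ratios, a fit to only the groups compared, edgeR 4.0.16 on the recovered reads, the replicate number as a block, and each library left out. On simulated data with 200 genes changed 3-fold, limma recovered 198 with 3 false calls among 13016 unchanged genes for sgCbfb in LPs of the first experiment (13216 genes), and 200 with 3 among 12776 for the second (12976 genes). The changed genes were drawn only from genes with higher means, and all genes were given the same spread between libraries. The recovery thus says nothing of low members such as *Dhx58* and *Zbp1*, or of genes with a wider spread. Figures were drawn with matplotlib 3.10.9.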

Additional observations from a re-analysis of the deposited data

How the results depend on the processing

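Of 438 counts of members called under an alternative, 433 equalled the count reported or differed from it by a small ratio, which was taken as the same. Such small differences are not listed. The exceptions were *Ifih1* between stages in sgControl cells, called (1 member higher rather than 0) with median-of-ratios scaling and with edgeR on the recovered reads. Leaving out single libraries gave 0 to 1 there, 0 to 1 lower for the interaction of stage and sgCbfb (*Irf9*, without Phase 1 sgControl library 3) and 1 to 2 higher for sgCTCF (*Irf7*, without sgCTCF library 3). The *Irf1* difference between stages in sgControl cells, 0.24 on the log2 scale, ran from -0.20 to 0.97 when single libraries were left out, with the reversed values -0.20 and -0.04 without Phase 1 sgControl library 1 or 2. Single members were followed only in comparisons where their adjusted P was under 0.05 in at least 1 setting. Of the 654 values under an alternative there, 24 lost the adjusted P of 0.05 (limma or edgeR) and 10 gained it, in the direction reported. Those lost were of *Irf9* between stages in sgCbfb cells, *Irf7* with sgCTCF, *Stat2* with sgCbfb or between sgMed12 and sgCTCF, and *Zbp1* with sgCTCF (adjusted P = 0.050 without sgCTCF library 2) or between sgCTCF and sgCbfb (0.12 at a pseudocount of 0.1). Those gained were of *Ifih1* and *Irf1* between stages in sgControl cells, *Irf1* between stages in sgCbfb cells, *Irf9* in the interaction, and, without sgMed12 library 2, *Irf1* and *Mavs* with sgMed12 and *Mavs* between sgMed12 and sgCTCF (limma, adjusted P = 0.0085). The 5 calls with sgCbfb in the second experiment lost none.

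Over all genes tested, deviations of same-numbered libraries were little correlated (first experiment, r of -0.011 to 0.10, second, -0.063 to 0.11). Their mean r was 0.015 in the first and 0.029 in the second, slightly above that of other pairs (-0.0076 and -0.015). The numbers were not taken to pair libraries. The replicate block changed no count of members called, with 5 higher for sgCbfb in the second experiment, 1 for sgCTCF and 0 for sgMed12. Over all genes sgMed12 calls depended on the setting, 88 higher with all groups in the fit, 24 with no filter and 27 with only the groups compared, and the cause was not tested. At the depth of the first experiment 3 reads were worth up to 2.20 CPM, which limits *Zbp1* and *Dhx58* there.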
